A study of Mus musculus with 4 samples.

Results

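The MHC class I genes described here are 10 genes named by symbol: the light chain gene B2m, the classical heavy chain genes H2-K1 and H2-D1, the non-classical heavy chain genes H2-Q6, H2-Q7, H2-T3, H2-T23 and H2-M3, and the peptide loading genes Tap1 and Tapbp. They are 10 of the 16500 gene symbols listed in any of 4 droplet libraries, and the rule that selects them is a list of symbols with no threshold on a measured value. Each library held live CD45+ leukocytes of the intraepithelial layer, sorted as CD45.2+, from 1 tissue of uninfected C57BL/6 mice: stomach, small intestine, cecum or colon. All 10 symbols were listed in small intestine, cecum and colon, and 9 in stomach, where H2-T3 was not listed. The labels give no age, sex or number of animals, and each tissue is 1 library.

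MHC class I molecules display short peptides from inside the cell to T cells, and natural killer cells read their presence through inhibitory receptors. A heavy chain pairs with beta-2 microglobulin, the product of B2m, and takes up a peptide that the transporter built from Tap1 and Tap2 has carried into the endoplasmic reticulum, with tapasin, the product of Tapbp, holding the complex at the transporter. The non-classical heavy chains have narrower roles: H2-Q6 and H2-Q7 encode Qa-2 molecules, H2-T23 encodes Qa-1, a ligand of the CD94/NKG2 receptors, H2-M3 presents N-formylated peptides, and H2-T3 encodes the thymus leukemia antigen, a ligand of the CD8 alpha-alpha dimer carried by many intraepithelial T cells. In mice, transcription of many class I genes is raised by interferons and depends on Nlrc5.

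On GRCm38, B2m lies on chromosome 2 (122147686 to 122153083, plus strand), and the other 9 members lie on chromosome 17, from Tapbp, which starts at 33915899, to H2-M3, which ends at 37274484. The 250 bases upstream of the annotated start are shown for the 4 heavy chain genes that were lower in both B and mast cells (H2-K1, H2-D1, H2-Q6 and H2-Q7), for H2-M3, which was higher in B cells, for H2-T23, which passed the test in no cell type, and for Tap1, which was higher in small intestine than in colon in 4 gates. The sequences are from RefSeq on GRCm38.p6, where all 10 members were matched, and are written 5′ to 3′ on the strand of the gene. Capitals mark matches to GAANNGAAA, a pattern found in interferon-stimulated response elements, and to GGG and TCCC with 3 bases between them, a pattern of NF-kB sites. For H2-K1, which has more than 1 entry, 1 is shown.
H2-K1 (chr17:34000334-34000583, minus strand): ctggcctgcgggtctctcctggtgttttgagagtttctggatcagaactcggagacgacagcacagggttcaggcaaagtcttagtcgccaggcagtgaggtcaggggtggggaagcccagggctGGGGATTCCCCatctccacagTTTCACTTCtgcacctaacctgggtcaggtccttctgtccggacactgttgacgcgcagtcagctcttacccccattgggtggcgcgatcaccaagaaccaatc
H2-D1 (chr17:35262844-35263093, plus strand): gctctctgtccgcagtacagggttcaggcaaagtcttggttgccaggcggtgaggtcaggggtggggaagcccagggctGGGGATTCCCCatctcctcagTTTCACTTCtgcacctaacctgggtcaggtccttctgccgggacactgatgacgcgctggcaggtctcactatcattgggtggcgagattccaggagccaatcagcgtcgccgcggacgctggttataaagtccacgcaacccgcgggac
H2-Q6 (chr17:35424600-35424849, plus strand): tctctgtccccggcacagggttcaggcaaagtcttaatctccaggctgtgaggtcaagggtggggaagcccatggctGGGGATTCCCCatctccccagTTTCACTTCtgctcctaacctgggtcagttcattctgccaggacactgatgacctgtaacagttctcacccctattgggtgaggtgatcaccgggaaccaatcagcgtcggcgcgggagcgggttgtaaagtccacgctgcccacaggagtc
H2-Q7 (chr17:35438905-35439154, plus strand): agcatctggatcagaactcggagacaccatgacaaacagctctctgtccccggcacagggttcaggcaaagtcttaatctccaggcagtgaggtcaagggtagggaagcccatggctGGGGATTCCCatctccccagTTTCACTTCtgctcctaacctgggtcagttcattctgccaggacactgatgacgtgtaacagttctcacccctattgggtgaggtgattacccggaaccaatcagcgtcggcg
H2-M3 (chr17:37269984-37270233, plus strand): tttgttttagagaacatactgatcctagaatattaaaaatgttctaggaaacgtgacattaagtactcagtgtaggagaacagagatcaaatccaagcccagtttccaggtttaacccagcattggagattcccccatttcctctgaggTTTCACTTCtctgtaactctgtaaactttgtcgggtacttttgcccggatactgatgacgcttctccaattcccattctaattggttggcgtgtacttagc
H2-T23 (chr17:36032702-36032951, minus strand): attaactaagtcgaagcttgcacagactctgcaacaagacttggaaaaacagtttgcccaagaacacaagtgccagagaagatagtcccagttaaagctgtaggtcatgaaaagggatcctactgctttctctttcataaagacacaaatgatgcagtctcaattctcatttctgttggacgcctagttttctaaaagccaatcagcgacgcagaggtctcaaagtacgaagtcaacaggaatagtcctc
Tap1 (chr17:34187306-34187555, plus strand): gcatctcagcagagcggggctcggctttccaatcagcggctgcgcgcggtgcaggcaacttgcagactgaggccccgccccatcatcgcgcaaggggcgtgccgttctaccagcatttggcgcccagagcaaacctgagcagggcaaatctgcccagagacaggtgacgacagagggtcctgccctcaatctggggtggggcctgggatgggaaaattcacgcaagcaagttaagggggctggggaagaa
GAANNGAAA was present, on either strand, in H2-K1, H2-D1, H2-Q6, H2-Q7 and H2-M3, against 6.31% of 32851 promoters of the same length. The NF-kB pattern was present in H2-K1, H2-D1, H2-Q6 and H2-Q7, against 4.77% of promoters, as a pair of overlapping matches in all of these except H2-Q7. TGACGTCA, a cyclic AMP response element, was present in no member and in 1.55% of promoters. None of these letter patterns was found in the windows of B2m, H2-T3, H2-T23, Tap1 or Tapbp. GAANNGAAA fixes the spacing of its parts, and wider spacings were not searched for. The B2m window holds gaaactgaaa, where GAA and GAAA lie 3 bases apart. The H2-T23 window holds tttctctttc, which has the same spacing on the opposite strand. The search thus does not show that windows without a match lack an interferon-stimulated response element.

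The libraries held 14378 barcodes and between 8568438 (cecum) and 12988676 (colon) unique molecular identifiers (UMIs), with medians per cell from 1707 in cecum to 2983 in colon, and 23 barcode sequences occurred in more than 1 library. Cells were placed in gates by transcripts of marker genes, none of them a member. The gates compared held 1883, 51, 9 and 1 mast cells in stomach, small intestine, cecum and colon, 284, 34, 13 and 47 macrophages, 69, 43, 453 and 164 B cells, and 292, 38, 54 and 58 NK/ILC1 cells. T cells (Cd3d, Cd3e, Cd3g) were divided into a Trdc-positive gate with 47, 1647, 508 and 917 cells, a Cd8a-positive gate with 50, 522, 1099 and 1492 cells, and a gate of other T cells with 148, 182, 1698 and 907 cells. A gate entered a comparison in libraries where it held at least 20 cells. Markers kept out of the gating rule were checked: Trac, the T cell receptor alpha constant gene, stood at 1.37 to 49.6 CPM (UMIs in counts-per-million units of the sum of a gate and library) in the mast, macrophage, B and NK/ILC1 gates, against 609 to 964 CPM in all T cells of a library. Summed over the 6 T markers kept out, the level was 577 and 823 CPM in mast cells of small intestine and stomach, 13.1 to 26.1 CPM in macrophages, 22.8 to 69.3 CPM in B cells and 2392 to 3119 CPM in NK/ILC1 cells, against 4353 to 6522 CPM in all T cells. Most of the mast sum was Lat, at 725 CPM in stomach and 457 CPM in small intestine mast cells, against 590 and 258 CPM in all T cells there. Thy1 in NK/ILC1 cells (257 to 417 CPM) overlapped all T cells (201 to 919 CPM). The T cell receptor beta constant gene Trbc1 did not separate NK/ILC1 cells (884 to 1382 CPM) from all T cells (1025 to 1434 CPM). The stomach gate of other T cells carried macrophage transcripts, with Lyz2 at 788 CPM, against 5.35 to 23.2 CPM in that gate of the other libraries. Lyz2 was also at 445 CPM in stomach NK/ILC1 cells, against 0 to 11.4 CPM in the other libraries, at 164 CPM in stomach mast cells, against 7.50 CPM in small intestine, and at 74.2 CPM in stomach B cells, against 0 to 8.8 CPM. The part of these transcripts in the member values was not tested.

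The first question was how the members differ between cell types of the epithelial layer. UMIs were summed per gate and library, and each gate was tested against the mean of the 3 T gates with edgeR's quasi-likelihood test. The fit had a term for the library, and p-values were adjusted over all 9043 genes tested. All gates shared 1 fit, so the p-values measure the spread over the libraries, which are different tissues, pooled over all gates. The 3 T gates of a library entered as separate sums. With 2 libraries, the mast comparison thus rests mainly on the spread of the other cell types. Of the 10 members, 9 passed the filter on low counts, and H2-T3 was not tested. In mast cells 8 of the 9 members were lower, where 19.1% of all genes tested were lower, and none was higher, where 16.3% were (35.4% in either direction). In B cells 5 of 9 were lower, where 19.4% of all genes were, and 1 was higher, where 16.9% were (36.4% in either direction). In macrophages 3 of 9 were lower, near the share of all genes, 24.7%, and none was higher, where 24.2% were (48.9% in either direction). In NK/ILC1 cells none of 9 passed in edgeR, where 4.69% of all genes did (3.03% higher and 1.66% lower); 2 of 9 had an unadjusted p under 0.05, and DESeq2 called 1.

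**Figure D1:**
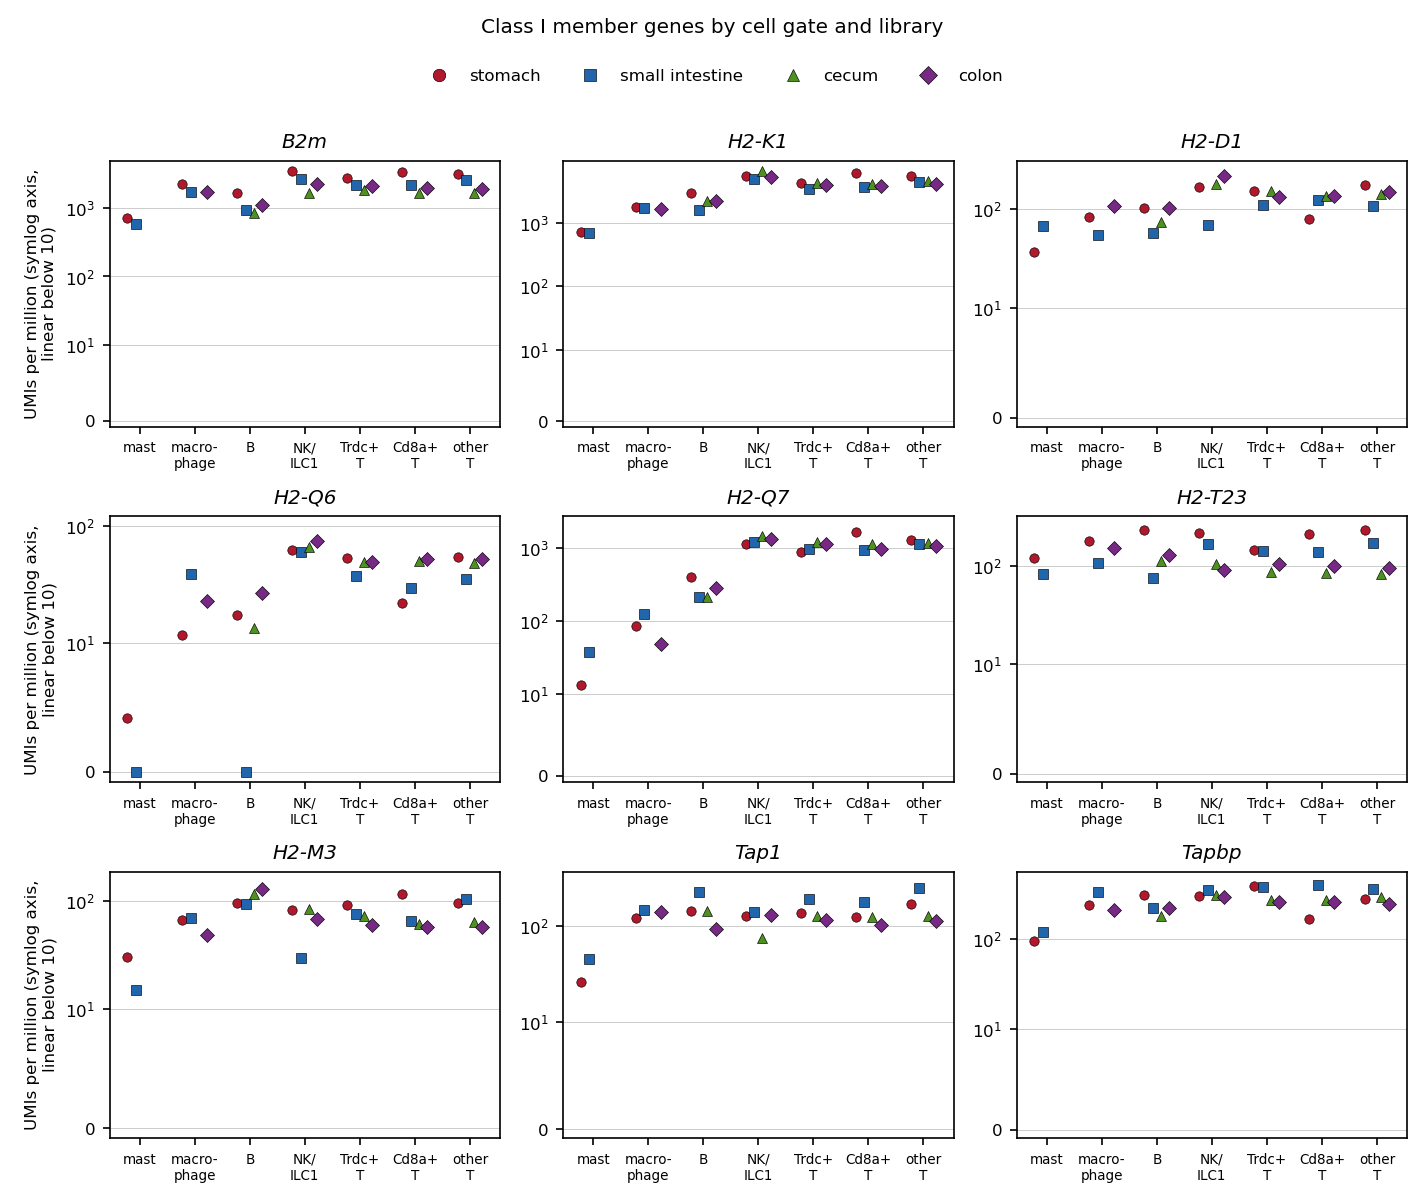
CPM (y axis, symlog, linear below 10) of the 9 members listed in all 4 libraries, by cell gate (x axis); each point is the sum of 1 gate in 1 library, coloured by tissue, for gates with at least 20 cells. Mast cell points lie below all T cell points for B2m, H2-K1 and H2-Q7, and the points of the 3 T gates overlap in every panel.

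B2m, the light chain shared by class I molecules, stood at 717 CPM in stomach and 585 CPM in small intestine mast cells. In B cells it stood at 1650, 944, 853 and 1109 CPM in stomach, small intestine, cecum and colon. All T cells of the same libraries had 3122, 2191, 1698 and 2013 CPM. Both the mast and the B cell values were below those of T cells in every library that entered. The log2 ratio over T cells was −1.65 ± 0.18 (SE) in mast cells (edgeR adjusted p = 6.08e-08) and −0.95 ± 0.12 in B cells (edgeR adjusted p = 6.35e-07). In macrophages B2m was at 2286, 1721 and 1719 CPM in stomach, small intestine and colon, below T cells in each, but the log2 ratio after TMM scaling was −0.02 ± 0.13 (edgeR adjusted p = 0.926). Scaling mattered in that gate: with library sizes alone the median of all genes moved to −0.51, from −0.14 with TMM, and B2m to −0.37.

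H2-K1, a classical heavy chain gene, had 715 and 697 CPM in mast cells of stomach and small intestine. Macrophages had 1722, 1683 and 1605 CPM in stomach, small intestine and colon. B cells had 2877, 1587, 2144 and 2165 CPM in the 4 libraries, against 5248, 3468, 4248 and 3859 CPM in all T cells. The 3 cell types lay below T cells in every library that entered, without overlap. The log2 ratios were −2.21 ± 0.20 in mast cells, −0.96 ± 0.15 in macrophages and −0.90 ± 0.13 in B cells (edgeR adjusted p = 5.25e-09, 1.08e-05 and 5.90e-06). NK/ILC1 cells had 5371, 4755, 6440 and 5141 CPM, above T cells in 4 of 4 libraries, with a log2 ratio of 0.39 ± 0.12 that missed the threshold (edgeR adjusted p = 0.0716) and passed with DESeq2 (0.42, adjusted p = 0.011).

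H2-D1, the other classical heavy chain gene, had 37.1 and 67.4 CPM in mast cells of stomach and small intestine, and 103, 56.7, 74.5 and 103 CPM in B cells of the 4 libraries. All T cells had 152, 112, 140 and 138 CPM. The log2 ratio was −1.28 ± 0.25 in mast cells (edgeR adjusted p = 3.02e-04) and −0.63 ± 0.18 in B cells (edgeR adjusted p = 0.00658). Each call was lost when a library was left out. Without stomach, which leaves a single mast library assumed to vary like the other sums, the mast value was −0.38 (edgeR adjusted p = 0.742). Without cecum the B cell value was −0.45 (edgeR adjusted p = 0.215), and it was also lost with stricter gates (0.0786) and with no library term (0.0673).

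H2-Q7 showed the widest differences between gates among the members tested. Mast cells had 13.4 CPM in stomach, from 58 UMIs, and 37.5 CPM in small intestine, from 5 UMIs. Macrophages had 85.9, 123 and 48.9 CPM in stomach, small intestine and colon. B cells had 394, 214, 213 and 282 CPM, while NK/ILC1 cells had 1108, 1201, 1421 and 1325 CPM. All T cells had 1261, 962, 1143 and 1024 CPM, so mast cells, macrophages and B cells each lay below T cells with no overlap and NK/ILC1 cells lay among them or above. The log2 ratio over T cells was −5.78 ± 0.42 in mast cells, −3.41 ± 0.28 in macrophages and −1.97 ± 0.21 in B cells (edgeR adjusted p = 8.36e-11, 2.22e-10 and 3.61e-08). In the same mast sums Trac stood at 4.15 CPM in stomach and 15 CPM in small intestine; how much free RNA from T cells adds to the H2-Q7 value was not tested.

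The share of cells with a UMI of H2-Q7 was in the same order. With each cell thinned to 1000 UMIs, it was 1.10% of 1817 mast cells, 8.10% of 284 macrophages, 33.8% of 68 B cells and 71.4% of 245 T cells in stomach (2.39%, 29.2%, 50.7% and 90.6% without thinning). In colon it was 2.13% of 47 macrophages, 23.2% of 164 B cells and 61.3% of 3309 T cells. The exact 95% binomial interval of the stomach mast share was 0.674% to 1.69%; such intervals cover counting error only. Median depth was 1888 UMIs in stomach mast cells, 4802 UMIs in stomach macrophages and 2533 UMIs in stomach T cells.

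H2-Q6 followed H2-Q7 at a lower count. It had 4.15 CPM in stomach mast cells, from 18 UMIs, and 0 UMIs in the 51 mast cells of small intestine, where 3 counts would be 22.5 CPM. B cells had 17.1, 0, 13.4 and 26.4 CPM, where the 0 of small intestine B cells stands beside 18.9 CPM for 3 counts. All T cells had 47.4, 35.5, 49.2 and 51.2 CPM, above B cells in 4 of 4 libraries. The log2 ratio was −2.88 ± 0.40 in mast cells, −1.52 ± 0.30 in B cells and −1.01 ± 0.32 in macrophages (edgeR adjusted p = 3.50e-06, 2.08e-04 and 0.012). The mast call was lost without stomach (adjusted p = 0.109), where the remaining mast library has no UMI. The macrophage call was lost when any of stomach, cecum or colon was left out, with adjusted p from 0.0625 to 0.536, and macrophages were higher than T cells in 1 of 3 libraries, small intestine. The reads of H2-Q6 are hard to place: of the 90-base windows in the last 400 bases of 1 of its annotated transcripts, 56.6% occurred word for word in other genes, among them H2-Q7, H2-K1 and H2-D1, so its values are uncertain.

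H2-M3, which presents formylated peptides, was the member that rose in B cells. B cells had 97.1, 94.4, 117 and 129 CPM in stomach, small intestine, cecum and colon, against 99.1, 75.7, 64.2 and 58.0 CPM in all T cells. The B cell value was higher in 3 of 4 libraries, and the gap was widest in cecum and colon. The log2 ratio was 0.77 ± 0.17 (edgeR adjusted p = 6.54e-04). Within a library, the ratio of B to T cells was 2.22 (95% interval 1.60 to 3.02) in colon, 1.83 (1.45 to 2.29) in cecum, 1.25 (0.69 to 2.08) in small intestine and 0.98 (0.54 to 1.68) in stomach. After thinning, 11.6% of colon B cells and 6.04% of colon T cells carried a UMI of H2-M3 (23.8% and 17.6% without thinning), and 3.25% of stomach mast cells did. In mast cells H2-M3 was at 30.0 and 15 CPM in stomach and small intestine, with a log2 ratio of −1.14 ± 0.26 over T cells (edgeR adjusted p = 0.00119) that was lost without stomach (adjusted p = 0.19).

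H2-T23, the Qa-1 gene, passed the test in none of the gates; 16.1% of the 90-base windows at its 3′ end also occur in Hook2 or Rab33b, so part of its counts is uncertain. It stood at 121 and 82.4 CPM in mast cells of stomach and small intestine, at 182, 108 and 153 CPM in macrophages of stomach, small intestine and colon, and at 234, 75.6, 114 and 129 CPM in B cells of the 4 libraries. NK/ILC1 cells had 218, 169, 104 and 91.4 CPM, against 211, 144, 84.8 and 99.9 CPM in all T cells. The values of the gates overlapped, and within B, NK/ILC1 and all T cells stomach was the highest library. The log2 ratios over T cells were −0.27 ± 0.23 in mast cells, 0.44 ± 0.19 in macrophages, 0.22 ± 0.17 in B cells and 0.13 ± 0.19 in NK/ILC1 cells (edgeR adjusted p = 0.395, 0.0615, 0.342 and 0.836). The mast value was lower at −0.65 with library sizes alone (adjusted p = 0.0239) and had the opposite sign, at 0.21, without the library term. The macrophage value passed as higher under 6 of 13 alternatives, at 0.50 to 0.58, among them DESeq2 (0.55, adjusted p = 0.0104), and with library sizes alone it was 0.07 (edgeR adjusted p = 0.749). The B cell value passed as higher without small intestine (0.47, edgeR adjusted p = 0.0252).

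Tap1, a chain of the peptide transporter, stood at 26.5 and 45.0 CPM in mast cells of stomach and small intestine, against 155 and 194 CPM in all T cells of those libraries. Its log2 ratio in mast cells was −1.93 ± 0.21 (edgeR adjusted p = 1.06e-07). Tapbp, the tapasin gene, stood at 94.2 and 120 CPM in the same mast cells, against 276 and 381 CPM in T cells, with a log2 ratio of −1.21 ± 0.22 (edgeR adjusted p = 1.19e-04). Mast cells lay below T cells in both libraries for both genes. In B cells, macrophages and NK/ILC1 cells neither gene passed, with log2 ratios between −0.28 and 0.27. Tap1 in macrophages passed with DESeq2 (0.39, adjusted p = 0.027), and Tapbp in B cells passed as lower without stomach (−0.43, edgeR adjusted p = 0.0172).

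**Figure D2:**
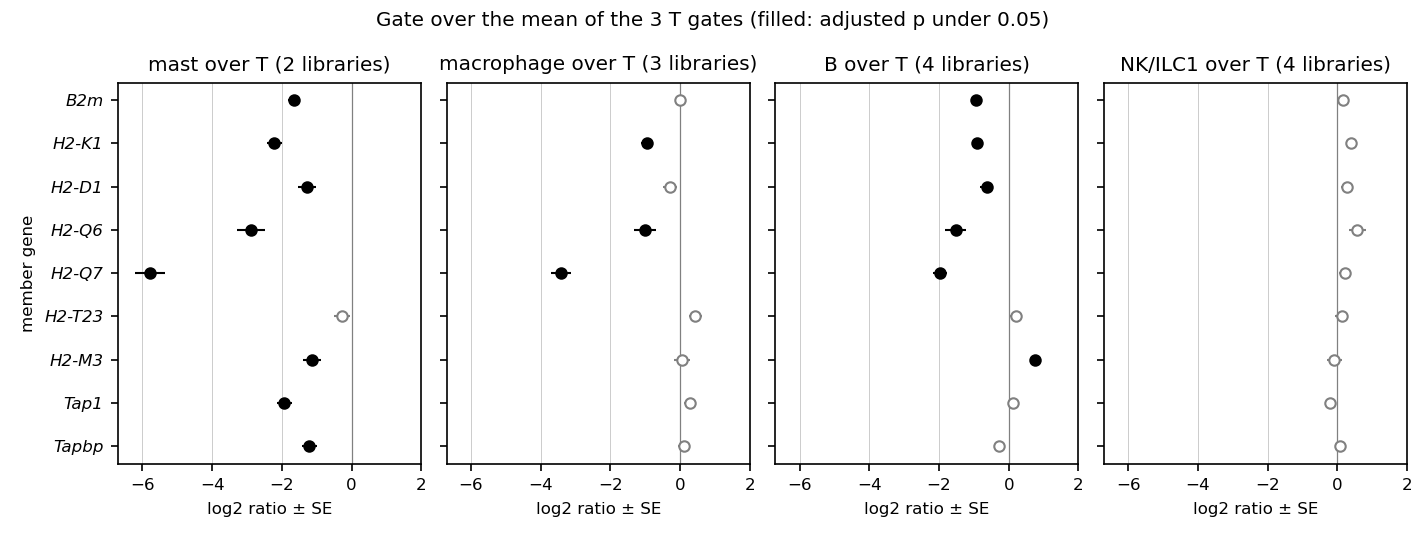
Log2 ratio of each member (x axis, ± SE) in mast cells, macrophages, B cells and NK/ILC1 cells over the mean of the 3 T gates, after TMM scaling; filled points passed the edgeR test at an adjusted p under 0.05. H2-Q7 lies farthest left in the mast, macrophage and B cell panels, and H2-M3 is the filled point right of 0 in B cells.

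Over the 9 members the median log2 ratio was −1.65 in mast cells, −0.02 in macrophages, −0.63 in B cells and 0.17 in NK/ILC1 cells, beside medians of all genes of −0.05, −0.14, −0.08 and −0.04. Other class I genes, of which 8 of 19 were tested, gave 3 lower in each of mast cells, macrophages and B cells: H2-Q4, H2-T10 and H2-T22, at −2.37, −1.97 and −1.58 in mast cells and −0.75, −0.59 and −0.58 in B cells, where the H2-T10 call was lost with DESeq2. Fcgrt, the neonatal Fc receptor heavy chain, was higher in macrophages (5.42) and B cells (3.76). Hfe, which takes part in iron control, was higher in macrophages (5.71). Of all genes tested, 19.1% were lower and 16.3% higher in mast cells. The shares were 24.7% and 24.2% in macrophages, and 19.4% and 16.9% in B cells. Of 11 genes of peptide supply and loading, 8 were lower in mast cells and 6 in B cells, and none was higher in edgeR, while DESeq2 gave 8 lower and 1 higher in mast cells and 5 lower and 2 higher in B cells; Tapbpl, a relative of tapasin, was at −2.63 and −1.51, and the immunoproteasome gene Psmb10 at −1.70 and −0.87. In macrophages 3 of the 11 were lower and 3 higher, near the shares of all genes, 24.7% and 24.2%. The 3 higher ones (Calr, Canx and Pdia3, chaperones of the endoplasmic reticulum) were not called with library sizes alone. That setting gave 8 lower and 0 higher.

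Among transcription factors of class I genes, Nlrc5, the class I transactivator, was lower in mast cells, with 6 UMIs in 1883 mast cells of stomach and 0 in small intestine; Irf1 (−1.25) and Irf2 (−0.61) were also lower, and Nfkb1 was higher (1.11). In B cells Nlrc5 (−1.94) and Irf1 (−1.29) were lower, and Irf2 (0.63) and the class II transactivator Ciita (5.01) were higher. In macrophages Nlrc5 (−1.31) was lower and Ciita (4.86) was higher. Of 15 interferon response genes tested, 10 were lower in mast cells and 8 in B cells, where 19.1% and 19.4% of all genes were. None was higher in either gate, where 16.3% and 16.9% were. In macrophages 6 were higher and 3 lower, where 24.2% and 24.7% of all genes were. The macrophage counts were 7 higher and 1 lower with DESeq2 and 4 higher and 3 lower with library sizes alone. In NK/ILC1 cells no gene of the other class I, loading or interferon lists passed in edgeR or DESeq2. Of 14 receptor genes 5 were higher, where 3.03% of all genes were, and 1 was lower, where 1.66% were. Among the higher ones were Klrk1 (2.84), the NKG2D gene, and Klrc1 (2.84), the NKG2A gene. The gate was set by NK cell markers that include receptor genes, so higher receptor genes there are not independent of the gate.

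The next question was whether the T cell gates differ from each other. None of the 9 members passed in Trdc-positive over Cd8a-positive T cells, in Trdc-positive over other T cells or in Cd8a-positive over other T cells in edgeR. In the first comparison 0.221% of all genes passed (0.122% higher, 0.0995% lower), in the second 1.6% (0.708% higher, 0.896% lower) and in the third 0.188% (0.0442% higher, 0.144% lower). In all 3 comparisons 0 of 9 members had an unadjusted p under 0.05 and DESeq2 called 0. The log2 ratios lay between −0.12 and 0.18 for Trdc-positive over Cd8a-positive, between −0.21 and 0.11 for Trdc-positive over other, and between −0.27 and −0.03 for Cd8a-positive over other T cells, with standard errors of 0.14 to 0.22. H2-K1, as an example, had 4173, 3353, 4177 and 3897 CPM in Trdc-positive T cells, 5967, 3580, 4017 and 3743 CPM in Cd8a-positive T cells and 5347, 4339, 4445 and 4042 CPM in other T cells. The gates overlapped. H2-K1 was lower in Trdc-positive than in other T cells in 4 of 4 libraries, at −0.21 ± 0.15 (edgeR adjusted p = 0.765). Tap1 was lower in Cd8a-positive than in other T cells in 4 of 4, at −0.27 ± 0.14 (edgeR adjusted p = 0.737), and higher in Trdc-positive than in Cd8a-positive T cells in 4 of 4, at 0.13 ± 0.14. In stomach, with 47 and 50 cells, H2-Q7 was at 862 CPM in Trdc-positive and 1619 CPM in Cd8a-positive T cells, a ratio of 0.53 (95% interval 0.42 to 0.67), and Tapbp at 381 and 167 CPM, a ratio of 2.28 (1.37 to 3.92).

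H2-T3, the ligand of CD8 alpha-alpha, was counted in few cells, in small intestine mostly in epithelial ones. In small intestine 40 of its 41 UMIs lay in the 17 cells of the epithelial gate (Epcam, keratins and related genes), of which 14 carried it, at 85.6 CPM (95% Poisson interval 61.2 to 117). The remaining UMI lay in 1 of 1647 Trdc-positive T cells, and all T cells of small intestine stood at 0.158 CPM. Another 12 small intestine cells met both the epithelial rule and that of another class, and carried 0 UMIs of H2-T3. In cecum 5 of 8 UMIs lay in 2 epithelial cells and the other 3 in T cells, 1 in each of the T gates. In colon 1 of 2 UMIs lay in 1 of 3 epithelial cells and 1 in other T cells. No UMI of H2-T3 was counted in mast, macrophage, B or NK/ILC1 cells of these 3 libraries, which at 3 counts allows up to 3.66 CPM in cecum B cells, 8.8 CPM in colon B cells and 17.1 to 29.8 CPM in the NK/ILC1 gates. The limit was 22.5 CPM in small intestine mast cells, and it was 149 and 328 CPM in the 9 mast cells of cecum and the 1 of colon, above the epithelial level of small intestine. Epithelial cells were deeper, with a median of 22944 UMIs in small intestine against 2320 UMIs in T cells there. They were a remnant in a leukocyte sort, and their values rest on few cells.

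**Figure D3:**
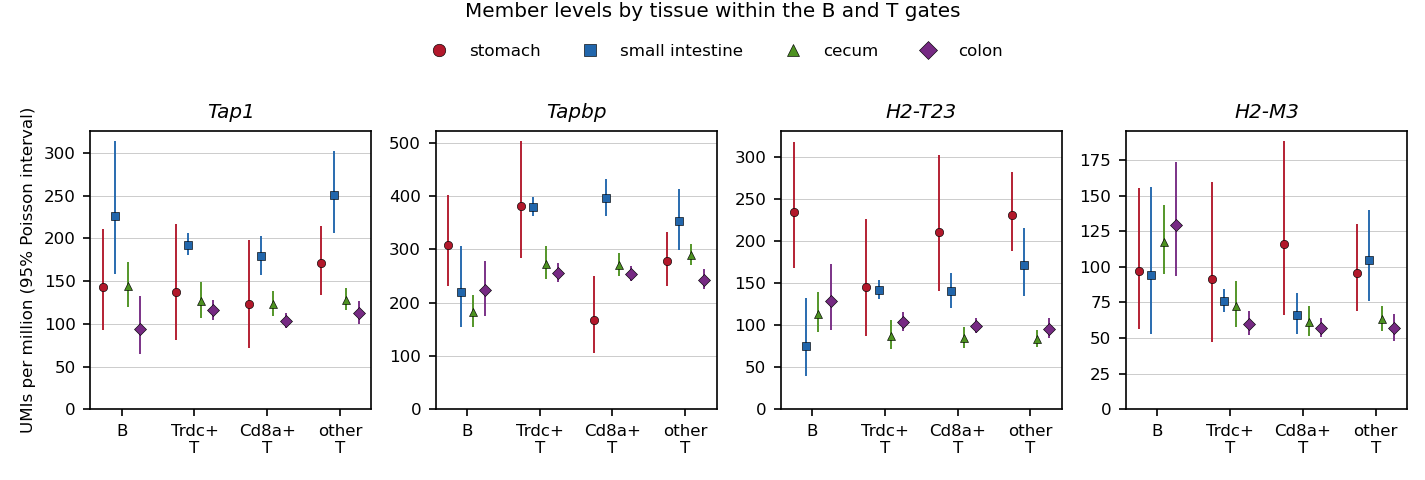
CPM (y axis, with 95% Poisson intervals for counting error) of Tap1, Tapbp, H2-T23 and H2-M3 in the B, Trdc-positive, Cd8a-positive and other T cell gates (x axis), coloured by tissue, with 1 library per tissue. Tap1 is higher in small intestine than in colon in all 4 gates, and the intervals of stomach are wide because its T and B gates hold 47 to 148 cells.

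The tissue comparisons have 1 library on each side, so no test was made; a value was called when it differed at least 1.5-fold with a 95% counting interval that excluded 1, and tissue, animals and library cannot be told apart. Small intestine was first set against colon. Tap1 had 193 CPM in small intestine and 116 CPM in colon in Trdc-positive T cells, a ratio of 1.66 (1.48 to 1.87). The ratio was 1.73 (1.48 to 2.02) in Cd8a-positive T cells, from 179 and 104 CPM. In other T cells it was 2.23 (1.77 to 2.79), from 251 and 113 CPM, and in B cells 2.42 (1.46 to 4.02), from 227 and 93.9 CPM. Tap1 was thus called in the 3 T gates and in B cells, with NK/ILC1 cells at 139 and 131 CPM and macrophages at 147 and 140 CPM in small intestine and colon.

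In Trdc-positive T cells Tap1 was the 1 member called higher of 8 that entered, where 9.03% of all genes entered were higher, and none was lower, where 8.58% were. In Cd8a-positive T cells 2 of 9 were higher, Tap1 and Tapbp (396 CPM in small intestine, 254 CPM in colon, ratio 1.56), where 11.1% of all genes were, and H2-Q6 was lower (29.2 and 52.3 CPM, ratio 0.56), where 10.6% were. In other T cells 3 of 9 were higher, where 15.7% of all genes were: Tap1, H2-T23 (172 and 95.9 CPM, ratio 1.79) and H2-M3 (105 and 56.9 CPM, ratio 1.84). None was lower there, where 9.49% were. In B cells Tap1 was 1 of 8, where 16.3% of all genes were higher, and none was lower, where 10.5% were. In NK/ILC1 cells 1 of 7 was lower, H2-D1 from 7 UMIs in small intestine (69.5 CPM against 217 CPM in colon), where 6.38% were, and none was higher, where 3.64% were. In macrophages H2-Q7 (123 and 48.9 CPM) and Tapbp (332 and 212 CPM) were 2 of 8 called higher, where 7.87% were, and none was lower, where 9.37% were. These shares rest on at most 3 called members each, and their difference from the shares of all genes was not tested.

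Genes of the interferon response stood higher in small intestine than in colon in the same T gates. Of all genes entered, 9.03%, 11.1% and 15.7% were called higher in Trdc-positive, Cd8a-positive and other T cells. In other T cells 9 of the 9 that entered were called higher, with a median log2 ratio of 1.46 beside 0.06 for all genes entered; Gbp2, a guanylate-binding protein gene, had 121 and 26.4 CPM in small intestine and colon, and Isg15 had 179 and 49.6 CPM. In Cd8a-positive T cells 6 of 9 were called higher (median 0.78, all genes −0.02), and in Trdc-positive T cells 3 of 9 (median 0.43, all genes −0.02). Outside T cells, 3 of 9 were called higher in macrophages (median −0.08, all genes −0.14) and 1 of 2 in B cells. In NK/ILC1 cells 0 of 6 were called (median 0.37, all genes −0.11). The shares of all genes called higher were 7.87% in macrophages, 16.3% in B cells and 3.64% in NK/ILC1 cells. Nlrc5 was called higher in all 3 T gates, with ratios of 1.83 in Trdc-positive, 2.29 in Cd8a-positive and 2.12 in other T cells. Of 11 peptide supply and loading genes, none of 10 that entered was called in Trdc-positive T cells, Tap2 was called higher in Cd8a-positive T cells (121 and 73.0 CPM), and Psmb9 and Psmb10 in other T cells. Median log2 ratios of the members were 0.18, 0.14 and 0.43 in Trdc-positive, Cd8a-positive and other T cells.

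**Figure D4:**
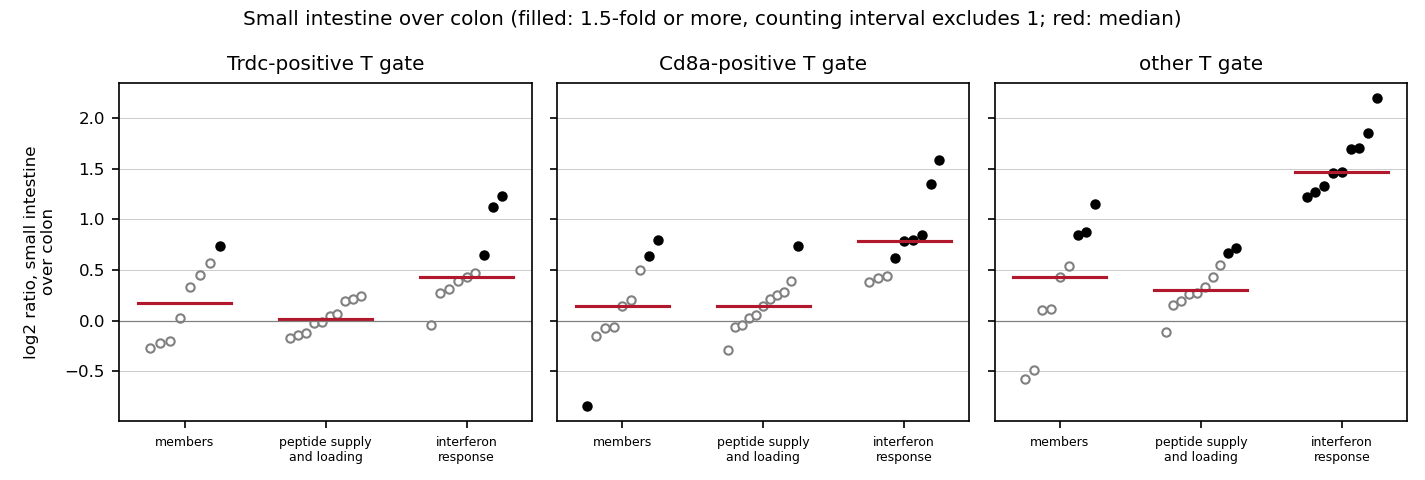
Log2 ratio of small intestine over colon (y axis) for members and fixed gene lists (x axis) in the Trdc-positive, Cd8a-positive and other T cell gates; each point is 1 gene that reached 50 CPM in either library and 20 UMIs in total, filled where called, with the median of the list in red. In other T cells all 9 interferon response genes are filled, with a median of 1.46, and the members spread on both sides of 0.

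Stomach was next set against small intestine, with few stomach cells in the T and B gates. In Cd8a-positive T cells 3 of 8 members were called higher, where 13.3% of all genes were: B2m (3404 and 2192 CPM, ratio 1.55), H2-K1 (5967 and 3580 CPM, ratio 1.67) and H2-Q7 (1619 and 916 CPM, ratio 1.77). Tapbp was lower there (167 and 396 CPM, ratio 0.42), where 16.2% were. In B cells 4 of 8 were higher, where 10.5% of all genes were: B2m (1650 and 944 CPM, ratio 1.75), H2-K1 (2877 and 1587 CPM, ratio 1.81), H2-Q7 (394 and 214 CPM, ratio 1.84) and H2-T23 (234 and 75.6 CPM, ratio 3.10, from 41 and 12 UMIs). H2-D1 was higher in other T cells (175 and 107 CPM), as 1 of 9 where 9.25% of all genes were, and in NK/ILC1 cells (168 and 69.5 CPM, the second from 7 UMIs), as 1 of 9 where 7.65% were. None was lower in B cells, other T cells or NK/ILC1 cells, where 19.3%, 17% and 9.67% of all genes were. No member was called in Trdc-positive T cells (9 entered; 12.4% of all genes higher and 12.6% lower), in macrophages (8 entered; 6.07% and 12.9%) or in mast cells (5 entered; 5.12% and 18.5%). B2m in mast cells had 717 and 585 CPM in stomach and small intestine, and H2-K1 715 and 697 CPM.

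Nlrc5 and interferon response genes differed among themselves in stomach over small intestine. Nlrc5 was lower in stomach in Trdc-positive (45.8 and 146 CPM) and Cd8a-positive T cells (87.1 and 158 CPM). Bst2, Irf7 and Isg15 were higher in stomach in all 3 T gates, while Gbp2, Gbp4 and Igtp were lower in other T cells. Of the interferon list, 3 of 9 that entered were higher and 0 lower in Trdc-positive T cells (12.4% and 12.6% of all genes). In Cd8a-positive T cells 3 of 10 were higher and 1 lower (13.3% and 16.2% of all genes). Other T cells had 5 of 12 higher and 3 lower (9.25% and 17% of all genes).

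Cecum over colon gave 1 call in 43 member and gate pairs that entered: Tap1 in B cells, at 144 and 93.9 CPM, a ratio of 1.54 (1.03 to 2.35), where 12.9% of all genes were higher and 9.14% lower. In Trdc-positive T cells 5.38% of all genes were higher and 6.39% lower, in Cd8a-positive T cells 3.48% and 5.03%, in other T cells 2.71% and 4.69%, and in NK/ILC1 cells 4.72% and 5.12%, with no member called. Tap1 in T cells stood at 127 and 116 CPM in the Trdc-positive gate, 123 and 104 CPM in the Cd8a-positive gate and 128 and 113 CPM in other T cells, in cecum and colon. The B cell result was not stable to depth: among cells with at least 1500 UMIs, which kept 119 of 453 cecum and 148 of 164 colon B cells, Tap1 was not called and B2m, H2-D1, H2-Q7 and Tapbp were called lower in cecum.

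Across the 25 sums of a gate in a library, the genes most like B2m among 3992 with a mean of at least 50 CPM were Gm4070 (Pearson r of log2(CPM + 10) = 0.93), the proteasome activator gene Psme2 (0.91) and Zbp1 (0.91), a sensor of nucleic acids. Those most like H2-T23 were Dock2 (0.73), Arhgef6 (0.71) and Gmfg-ps (0.70). The sums share libraries and depth, so these values only describe the likeness. H2-T3 was not listed in all 4 libraries and was left out.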

How the data were processed

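Single-cell RNA-seq libraries of intraepithelial leukocytes were made with the 10x Chromium Single Cell 3′ v2 kit per the labels' protocols, which name colons as the tissue in all 4 records; tissue was taken from each sample's own tissue label. The deposited matrices hold raw UMI counts per gene and barcode, 1 library per tissue; the authors' processing used Cell Ranger (version not given in the sources used here) and Seurat 3.0.0 on GRCm38 (mm10), per the submitters' processing notes, and ribosomal protein and mitochondrial symbols are not listed in the files. Depth per library is given as total UMIs; CPM is over the listed genes.

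The members and the gene lists were chosen with earlier results of these data known, so no list is independent support for a direction. All members were named, and list genes past a test or fold were taken as examples; 1 gene of the transcription factor list is not reported here.

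Cells with fewer than 200 genes were removed (5 barcodes). A cell entered a class with at least 3 distinct markers, or 2 for T, NK/ILC1 and neutrophil. NK/ILC1 cells also held at most 1 UMI of the Cd3 genes and fewer than 3 markers of group 2 innate lymphoid cells. These thresholds were set after looking at marker counts. Cells meeting more than 1 class (293) or none (1004) were left out, and no doublet caller was run. T cells with a Trdc UMI were Trdc-positive, of the rest those with a Cd8a UMI were Cd8a-positive, so dropout of either transcript moves cells between these gates.

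UMI counts were summed per gate and library (25 sums with at least 20 cells) and tested with edgeR 4.0.16 in R 4.3.3 (TMM, quasi-likelihood, gate and library terms, Benjamini-Hochberg adjustment over 9043 genes, threshold 0.05). The macrophage contrast rests on 3 libraries and the mast contrast on 2. DESeq2 1.42.0 was an alternative. Tissues were compared without a test by ratios of CPM with exact conditional 95% intervals, among genes with at least 50 CPM in either library and 20 UMIs in total. Floors are 3 counts. On simulated counts of the B over T comparison (8387 genes), 99 of 100 genes changed 4-fold and 89 of 100 changed 2-fold were recovered, and 5 of 8187 unchanged genes were called. The changed genes were drawn from those with a mean above 50 CPM, and no other gate or library difference was simulated. Recovery of lower members such as H2-Q6, or in the mast and macrophage contrasts, was not tested. Sharing of 3′ ends was checked on GENCODE M21 transcripts.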

Additional observations from a re-analysis of the deposited data

Results flagged for a closer look

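H2-M3 in Cd8a-positive T cells stood at 116.1 CPM in stomach, from 50 cells, far from the other 3 libraries, which had 66.0, 61.2 and 57.2 CPM in small intestine, cecum and colon. It was the 1 such value among 45 groups of 4 libraries examined, and chance alone marks about 1 group in 20.

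Among 63 comparisons of a gate within libraries, 2 differed in direction between libraries with counting intervals that excluded 1 on both sides. H2-Q7 in Trdc-positive over Cd8a-positive T cells had a ratio of 0.5326 in stomach, against 1.091 in cecum and 1.148 in colon. The stomach gates held 47 and 50 cells. H2-T23 in B cells over all T cells had a ratio of 0.5256 in small intestine, from 43 B cells, against 1.34 in cecum. The difference between libraries was not tested in any of these cases.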

How the results depend on the processing

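The counts of members called kept within 1.5 times their value in 101 of 107 recomputations. The exceptions were these. In NK/ILC1 cells DESeq2 called 1 member and edgeR with only the gates of the contrast called 1, H2-K1 in both, against 0. In macrophages DESeq2 called 5 (2 higher, 3 lower) and library sizes alone called 5, all lower, against 3. Mast cells without stomach gave 5 against 8. Cecum over colon among cells with at least 1500 UMIs gave 4 calls against 1, all lower in cecum B cells. Leaving out 1 library at a time gave 5 to 7 members in B cells, 2 to 4 in macrophages, 5 to 8 in mast cells and 0 in NK/ILC1 cells and in the comparisons among T cells. Of the members' gate ratios, 794 kept their side of the threshold, 14 passed it only under an alternative and 11 only in the reported fit. These include the ratios among the T gates, where no setting called a member. All the changes fell in the ratios over T cells. Of the tissue ratios, 702 moved less than their counting interval and 29 more. No value called in the reported fit changed sign. Of 584 values called under neither setting, 51 changed sign, all between −0.33 and 0.27 on the log2 scale. For H2-Q6 in macrophages and H2-D1 in B cells the call was lost under 5 and 3 alternatives, and the cause was not tested. The stomach T and B gates (47 to 148 cells), mast cells outside stomach and the NK/ILC1 gates outside stomach limit precision, and tissue comparisons have no replicate. No paired analysis was possible because each tissue has a single library and the replicate number 1 of each marks no pairing.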

Other observations

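Dendritic, plasma and epithelial gates entered no comparison, and their values are given as levels. Dendritic cells (16, 118, 10 and 15 cells in stomach, small intestine, cecum and colon) had Tap1 at 310, 268, 363 and 211 CPM, above the all T value of the same library in each (155, 194, 126 and 109.5 CPM). Their H2-T23 stood at 291, 283, 161 and 236 CPM, also above all T cells, and their H2-K1 at 2190, 3076, 3331 and 3572 CPM, below all T cells (5248, 3468, 4248 and 3859 CPM). The 163 plasma cells of small intestine had B2m at 1497 CPM, H2-K1 at 785 CPM, H2-D1 at 10.9 CPM and H2-Q7 at 51.0 CPM, with Tapbp at 232 CPM. The 17 epithelial cells of small intestine had B2m at 578 CPM, H2-K1 at 556 CPM, H2-Q7 at 19.3 CPM and H2-T3 at 85.6 CPM.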
